A study of Mus musculus with 43 samples.

Results

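The kinesin superfamily genes of the mouse were taken as the 43 protein-coding genes of GENCODE vM21, among 21951 in all, whose symbol begins with Kif followed by a digit or by c. They were divided by known function into 15 mitotic kinesins, 17 transport kinesins, 10 kinesins of cilia, signalling or other functions, and Kif1bp, which fits the naming rule but encodes a kinesin-binding protein without a motor of its own. Their RNA was followed in 10 libraries of P7 testis, and peaks at their promoters in 33 CUT&Tag lists covering 7 histone marks at P7 and P14.

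Kinesins are motor proteins that use ATP to move along microtubules, mostly away from the centrosome, while the Kifc proteins move towards it and the Kif2 proteins take microtubule ends apart. Mitotic kinesins build the spindle, move chromosomes and drive cytokinesis, so their RNA is high in dividing cells such as spermatogonia. Transport kinesins carry organelles, vesicles and ciliary cargo in most cells of the testis, in the germline as in its supporting cells.

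The study removed Prmt1, the main enzyme that asymmetrically dimethylates arginine 3 of histone H4 (the mark H4R3me2a), from the germline of mice on the C57BL/6J background. Prmt1-dKO mice carried Prmt1 lox/lox alleles and a CreERT2 knocked into Ddx4, so that Cre is made from the Ddx4 promoter in germ cells alone, and were given tamoxifen on 3 days. The controls carry the label WT, although the methods name heterozygous Ddx4-GFP-CreERT2 Prmt1 +/lox mice as the source of control cells for sorting, and the labels do not say whether the WT mice received tamoxifen. All RNA came from P7: 3 WT and 3 Prmt1-dKO libraries by bulk RNA-seq, and 2 WT and 2 Prmt1-dKO libraries by a modified Smart-seq2 protocol on GFP-positive spermatogonia isolated by cell sorting. The bulk libraries are labelled spermatogonia, but their protocol describes RNA of the whole testis, and Sertoli and Leydig cell markers were abundant in them (summed TPM of 9082 to 9753 and 908 to 1010 in WT). CUT&Tag was done on filtered cell suspensions of tubules from WT mice at P7 and P14, with 3 lists for H4R3me2a at each age and for H4R3me2s at P14 and 2 for every other mark and age, and 2 further H4R3me2s lists came from Prmt1-dKO at P7. The P14 samples are called spermatogonia in their titles and spermatocytes in their cell type label. No label states that the replicates were separate mice, so p-values measure only the spread between these samples.

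The RNA libraries held 12396345 to 18547103 expected counts. Prmt1 itself stood at 652, 604 and 638 TPM (a transcript level scaled by library and per transcript length) in bulk WT against 410, 433 and 402 in bulk Prmt1-dKO, and at 350 and 239 against 179 and 151 in the sorted cells; since exons 4 and 5 alone are floxed, these whole-gene levels are only a partial check of the labels. The sorted WT libraries differed from each other far more than any other replicate pair, with a mean squared difference between their counts 141 times that of pure counting noise, against 19 for the sorted Prmt1-dKO pair and 3.79 to 48.1 for the bulk pairs. More genes had a count in the sorted Prmt1-dKO libraries (20194 to 21404) than in the sorted WT libraries (15587 to 17106). Of 10 macrophage markers, 9 were at 0 in each sorted WT library and 1 or 2 in each sorted Prmt1-dKO library, with a summed level of 3.00 to 5.02 TPM against 66.9 to 74.8 TPM.

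To show what lies under the peaks and beside the expression values, the bases just upstream of the RefSeq transcript start (GRCm38.p6) were read for the members on which the results turn. Kif11, Kif15 and Kif22 are 3 of the 10 mitotic kinesins whose RNA fell in Prmt1-dKO testes. They are also the only 3 of 14 mitotic kinesins with a match to the cell cycle homology region in the last 50 bases. That motif is explained below. Kifc1 and Kifc5b are near-identical copies, and Kif1a is the member called lower in Prmt1-dKO testes by more than 2-fold. Kif3a is the most abundant member in sorted cells, and Kif2b carried H4R3me2a without RNA. All run 5′ to 3′ on the strand of the gene and end at the base before the start, and capitals mark matches to the motifs named after them. Kif2b is shown over 200 bases and the others over 100.
Kif11 (chr19:37376282-37376381, plus strand): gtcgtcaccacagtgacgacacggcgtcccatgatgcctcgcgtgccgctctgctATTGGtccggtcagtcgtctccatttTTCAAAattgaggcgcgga
Kif15 (chr9:122950981-122951080, plus strand): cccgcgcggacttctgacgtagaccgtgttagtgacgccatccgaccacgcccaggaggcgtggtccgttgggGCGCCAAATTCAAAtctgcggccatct
Kif22 (chr7:127042421-127042520, minus strand): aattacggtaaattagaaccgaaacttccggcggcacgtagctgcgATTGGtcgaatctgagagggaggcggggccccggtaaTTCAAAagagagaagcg
Kifc1 (chr17:33890634-33890733, minus strand): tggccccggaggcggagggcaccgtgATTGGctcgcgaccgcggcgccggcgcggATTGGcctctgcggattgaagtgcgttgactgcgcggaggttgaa
Kifc5b (chr17:26916991-26917090, plus strand): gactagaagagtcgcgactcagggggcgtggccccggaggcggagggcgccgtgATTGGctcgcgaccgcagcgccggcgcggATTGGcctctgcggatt
Kif1a (chr1:93101875-93101974, minus strand): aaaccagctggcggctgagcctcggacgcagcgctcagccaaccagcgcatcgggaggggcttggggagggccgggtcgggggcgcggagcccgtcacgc
Kif2b (chr11:91577556-91577755, minus strand): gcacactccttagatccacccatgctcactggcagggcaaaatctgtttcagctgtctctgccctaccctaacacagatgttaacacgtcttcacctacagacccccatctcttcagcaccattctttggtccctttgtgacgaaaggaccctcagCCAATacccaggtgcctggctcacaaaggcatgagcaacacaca
Kif3a (chr11:53567269-53567368, plus strand): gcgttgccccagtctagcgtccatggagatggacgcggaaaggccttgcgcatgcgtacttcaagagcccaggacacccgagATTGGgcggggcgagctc

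Capitals stand for 3 motifs known from promoters of cell cycle genes, each searched on both strands. The CCAAT box reads CCAAT, seen as ATTGG when it lies on the opposite strand. The cell cycle homology region was searched as the letters TTTGAA and also as TTCGAA, of which the former is seen as TTCAAA in reverse. The E2F site was searched as TTTGGCGC, then as TTTCCCGC, then as TTTGCCGC and then as TTTCGCGC. In the Kif15 stretch an E2F match (GCGCCAAA) runs directly into a match to the cell cycle homology region (TTCAAA). Among the 34 members with an entry in the RefSeq promoter table, the region upstream for 250 bases held the cell cycle homology region in 5 of 14 mitotic kinesins (Kif11, Kif14, Kif15, Kif22 and Kif2c), 1 of 11 transport kinesins (Kif1a, at another start than the one shown) and 3 of 8 of the cilium and signalling group, against 17.1% of all 32851 promoters. A CCAAT box was found in 9 of 14 mitotic kinesins, 3 of 11 transport kinesins and 4 of 8 of the cilium and signalling group, against 33.8% of promoters. E2F letters were found in Kif15 and Kif18a and in 1.86% of promoters. In the last 50 bases, a window chosen after the matches were seen, the cell cycle homology region stood in 3 of 14 mitotic kinesins, 1 of 11 transport kinesins and 2 of 8 of the cilium and signalling group, against 2.77% of promoters, at 19 bases before the start in Kif11 and Kif15 and at 17 in Kif22. A match is a description of letters and not a bound site. Kifc1 and Kifc5b shared 191 of 222 upstream bases (86.0%) once shifted by 28, and reads of such near copies can be divided arbitrarily between them, so the counts of both are uncertain.

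Mitotic kinesins were among the most abundant members in whole testes at P7. Kif23, a subunit of the centralspindlin complex of the dividing midbody, stood at 79.9, 75.7 and 74.9 TPM in bulk WT. Kif20a, a motor of late cytokinesis, stood at 59.5, 72.6 and 61.5 TPM, and Kif22, a chromosome-arm motor, at 61.5, 59.1 and 55.6 TPM. Transport kinesins reached the same range through Kif5b, the ubiquitous conventional kinesin heavy chain, with 85.2, 86.0 and 69.5 TPM. Kif1c, a vesicle motor, followed with 55.8, 54.2 and 52.8 TPM, and Kif3a, a subunit of the motor of intraflagellar transport, with 41.3, 44.3 and 38.7 TPM. The cilium and signalling group was lower, led by Kif26a, an atypical kinesin without motility, at 24.4, 22.9 and 20.8 TPM, by the Hedgehog regulator Kif7 at 13.9, 15.3 and 13.4 TPM, and by Kif27 at 6.8, 8.35 and 5.0 TPM. Kif2b had at most 1 count in any library and Kif28 at most 9, so neither was tested.

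In Prmt1-dKO testes most mitotic kinesins were lower, by less than 2-fold. Of 14 tested, 13 had a negative log2 fold change, 10 fell at a Benjamini-Hochberg adjusted p (FDR) below 0.05 in edgeR's quasi-likelihood test and 0 rose, against 8.51% of all 16554 genes tested that were lower and 10.6% that were higher by that rule. The median log2 fold change was -0.59 for the mitotic kinesins, -0.19 for the transport kinesins, 0.09 for the cilium and signalling group and 0.02 for all genes tested. In 12 of the 14 mitotic kinesins every Prmt1-dKO library had a lower CPM (counts scaled to library size) than every WT library, against 19.9% of all genes.

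Motors that assemble the spindle were among the members that fell most. Kif11, the bipolar motor that pushes spindle poles apart, had 40.3, 44.6 and 36.7 TPM in WT and 23.2, 16.0 and 22.8 TPM in Prmt1-dKO. Its log2 fold change was -0.82 (SE 0.12, edgeR FDR 0.0030). The gene lies at chr19:37376403-37421859 on the plus strand of GRCm38. Kifc1, a motor of the opposite polarity that focuses spindle poles (chr17:33875659-33890661, minus strand), had 49.8, 44.2 and 42.8 TPM against 25.6, 22.1 and 18.9 TPM, a log2 fold change of -0.88 (SE 0.14, edgeR FDR 0.0043). The genotypes did not overlap for either gene. Kif15 (chr9:122951046-123018733, plus strand), which can separate poles beside Kif11, had 510, 579 and 493 counts against 315, 228 and 359, and fell by 0.65 on the log2 scale (SE 0.13, edgeR FDR 0.0109). Its TPM lay closer, at 21.17, 18.54 and 22.6 against 16.66, 18.5 and 17.76, and nearly met. The mean transcript length that RSEM assigned, by which TPM is divided, was 2778, 3283 and 2302 bases in WT and 2340, 1470 and 2058 in Prmt1-dKO.

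Motors of chromosome arms and of microtubule plus ends showed the same direction. Kif4, a chromosome-bound motor that organises the anaphase midzone, had 24.1, 25.7 and 20.2 TPM in WT and 14.0, 13.4 and 8.88 TPM in Prmt1-dKO (log2 fold change -0.81). Kif22 (chr7:127027729-127042471, minus strand) had 38.0, 36.0 and 36.7 TPM in Prmt1-dKO, all below its WT values given above (log2 fold change -0.44, edgeR FDR 0.0221). Kif18b, which shortens astral microtubules, had 23.3, 21.5 and 23.2 TPM against 14.9, 9.77 and 12.6 TPM (log2 fold change -0.73). All 3 genes passed the FDR threshold without overlap between genotypes.

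The 4 motors of cytokinesis fell too. Kif14, which brings citron kinase to the midbody, had 8.03, 7.05 and 6.59 TPM in WT and 3.87, 2.24 and 4.66 TPM in Prmt1-dKO (log2 fold change -0.71, edgeR FDR 0.0193). Kif23 had 44.8, 45.8 and 44.1 TPM in Prmt1-dKO, narrowly spread and well below WT (log2 fold change -0.52, edgeR FDR 0.0094). Kif20a had 51.5, 34.9 and 41.8 TPM (log2 fold change -0.44). In Kif20b the counts fell from 826, 936 and 787 to 548, 352 and 540 (log2 fold change -0.66), while TPM overlapped at 20.0, 24.02 and 18.2 against 19.3, 16.6 and 21.1, with shorter assigned transcripts in Prmt1-dKO (3376, 2347 and 2536 bases) than in WT (4575, 4032 and 4300).

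The mitotic members that did not pass were the microtubule depolymerases Kif2a and Kif2c, the length regulator Kif18a and Kifc5b. Kif2a had 45.2, 49.8 and 38.5 TPM in WT and 45.6, 26.8 and 44.2 TPM in Prmt1-dKO, so the genotypes overlapped. Kif18a overlapped as well, at 14.0, 15.8 and 11.9 against 14.4, 8.0 and 12.4 TPM. Kif2c, the depolymerase of centromeres, was at 42.6, 39.1 and 37.3 TPM against 34.5, 30.2 and 28.2, without overlap but above the FDR threshold. Kifc5b, the copy of Kifc1, was at 18.6, 15.4 and 14.5 TPM against 12.5, 10.6 and 10.04.

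The count of 10 rests on which libraries enter. It was 10 with DESeq2, with the size factors of DESeq2, without a filter and with limma-voom, and 8 to 11 without any 1 of the Prmt1-dKO libraries or WT replicate 3. Without WT replicate 1 or without WT replicate 2 it was 4, where 2.8% and 3.36% of all genes were lower. These recounts were chosen after the data were seen.

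Other genes of dividing cells were lower in the same libraries. All 19 spindle and cytokinesis partners tested had a negative log2 fold change (median -0.59), and 14 of them passed the FDR threshold as lower, where 8.51% of all genes did. Of 10 proliferation markers 9 passed as lower. Without WT replicate 1 the 2 lists had 6 and 5 genes that passed, and without WT replicate 2 they had 8 and 5, recounted after the data were seen. The summed level of the proliferation markers was 1093 to 1230 TPM in WT and 656 to 757 TPM in Prmt1-dKO, beside 465 to 513 and 291 to 359 TPM for the mitotic kinesins. Germ cell markers summed to 1794 to 2066 TPM in WT and 1736 to 1785 TPM in Prmt1-dKO, with none of 14 at 0 in any library. Peritubular myoid markers went from 978 to 1041 TPM in WT to 349 to 561 TPM, Leydig cell markers from 908 to 1010 TPM to 404 to 444 TPM and Sertoli cell markers from 9082 to 9753 TPM to 6229 to 6851 TPM. Markers of macrophages and endothelial cells had a median log2 fold change of 0.32 and 0.31. The part of these cell types in the kinesin values was not tested, and fewer cells of a type cannot be told apart from less RNA per cell in whole testes.

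**Figure D1:**
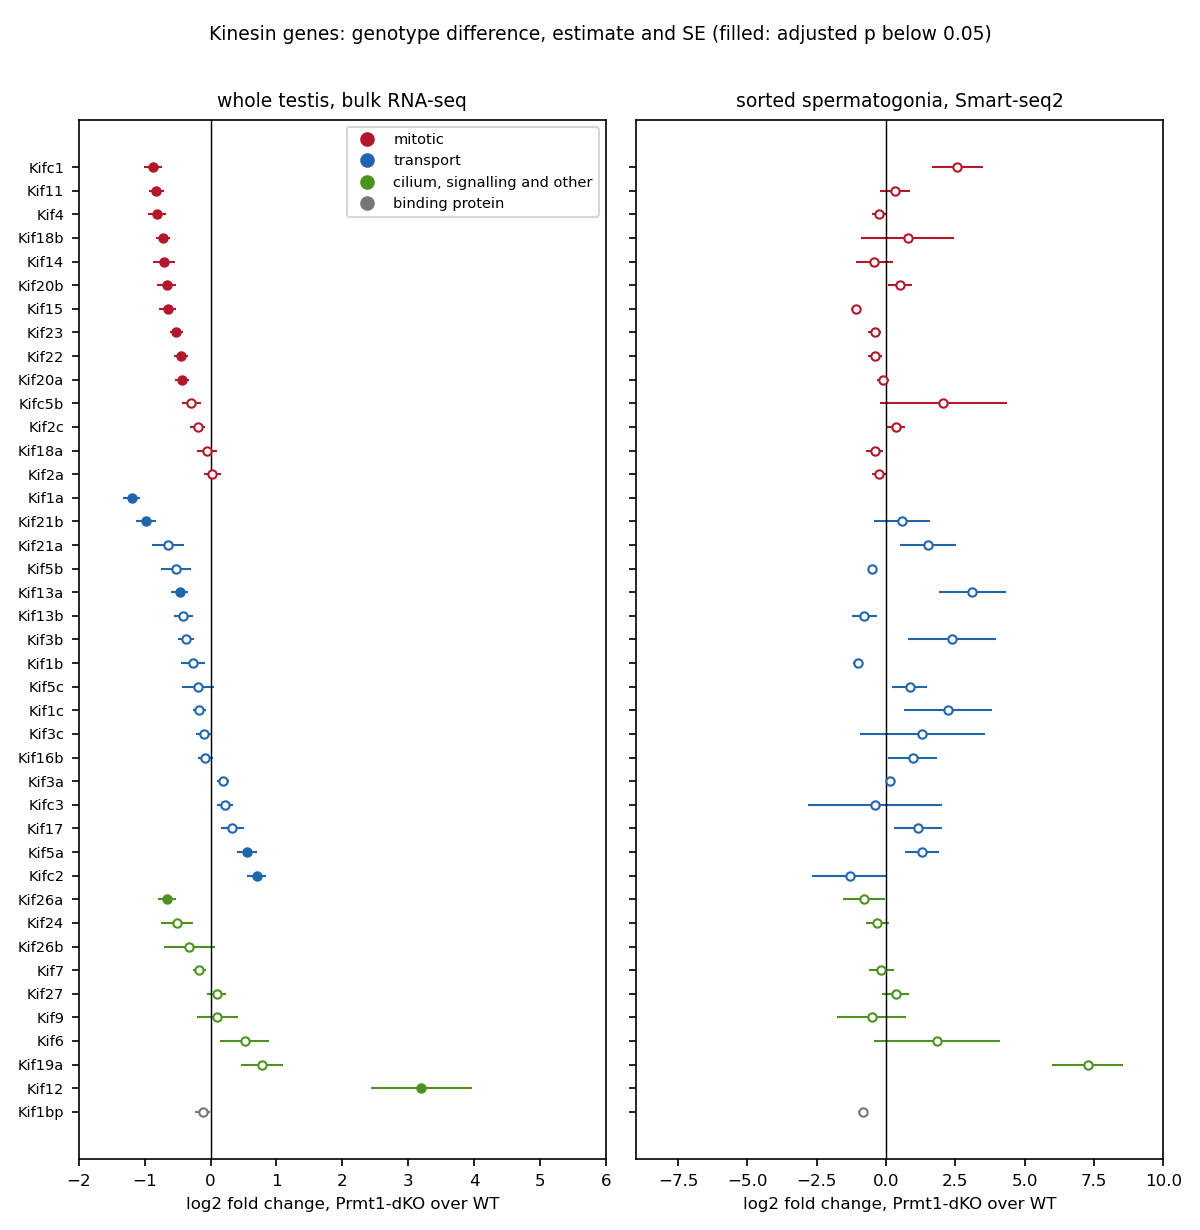
Log2 fold change of Prmt1-dKO over WT with its SE (x axis) for each kinesin gene (y axis, coloured by role) in whole testes on the left and sorted spermatogonia on the right, with filled points at an edgeR adjusted p below 0.05. In whole testes 10 of 14 mitotic kinesins are filled and to the left of 0, and no point is filled in sorted spermatogonia, where the axis is wider.

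Transport kinesins were divided in whole testes. By the rule of an FDR below 0.05 with at least a 2-fold change, 1 member was lower (Kif1a) and 1 was higher (Kif12 of the cilium group), where 1.78% and 5.32% of all genes tested were. Kif1a, a motor best known for carrying synaptic vesicle precursors in neurons (chr1:93015464-93101951, minus strand), had 20.5, 17.9 and 13.7 TPM in WT and 8.03, 4.85 and 7.72 TPM in Prmt1-dKO. Its counts were 1157, 1150 and 1080 against 496, 357 and 460, a log2 fold change of -1.20 (SE 0.13, edgeR FDR 0.0013), and it was called in every alternative run for this comparison. In sorted WT spermatogonia Kif1a had 0 and 96 counts, and in sorted Prmt1-dKO cells 3 and 1.

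Kif21b, a motor that restrains microtubule growth, had 15.2, 15.7 and 11.1 TPM in WT and 7.83, 4.49 and 6.33 TPM in Prmt1-dKO (log2 fold change -0.98, SE 0.15, edgeR FDR 0.0038), just under 2-fold. Without WT replicate 3 or without Prmt1-dKO replicate 1 it passed both thresholds. The endosomal motor Kif13a fell less, from 15.2, 12.9 and 11.9 to 11.7, 8.24 and 10.2 TPM (log2 fold change -0.47, edgeR FDR 0.0394). Kif26a of the signalling group fell to 16.7, 10.2 and 12.01 TPM (log2 fold change -0.66, edgeR FDR 0.0110).

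In the other direction 2 of 17 transport kinesins passed the FDR threshold alone, a share near the 10.6% of all genes. Kifc2, a motor directed to microtubule minus ends, had 8.21, 7.15 and 6.67 TPM in WT and 11.5, 11.2 and 8.68 TPM in Prmt1-dKO (log2 fold change 0.70, SE 0.14, edgeR FDR 0.0109). The neuronal heavy chain Kif5a had 243, 296 and 215 counts against 360, 282 and 343, and 5.24, 5.64 and 3.89 against 7.19, 5.04 and 5.78 TPM, both overlapping, while its CPM did not (log2 fold change 0.56, edgeR FDR 0.0329). Kif12 had 2, 4 and 10 counts in WT and 16, 82 and 30 in Prmt1-dKO, a log2 fold change of 3.20 (SE 0.77, edgeR FDR 0.0210) at a very low level of at most 3.60 TPM, and the call was lost without WT replicate 1 or WT replicate 2. The remaining transport kinesins did not pass. Kif5b had 56.2, 28.7 and 69.5 TPM in Prmt1-dKO, of which the highest equalled the lowest WT value, and Kif3a overlapped in TPM, with 42.1, 35.2 and 39.3.

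Partners of the transport motors did not share a direction. None of the 5 kinesin-associated subunits tested passed the FDR threshold in whole testes (median log2 fold change 0.05). Of 16 cytoplasmic dynein and dynactin genes, which move cargo the opposite way, 2 passed as higher and 3 as lower (median -0.07), all below 2-fold, where 10.6% and 8.51% of all genes did. Without WT replicate 1 or WT replicate 2 none of them passed.

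**Figure D2:**
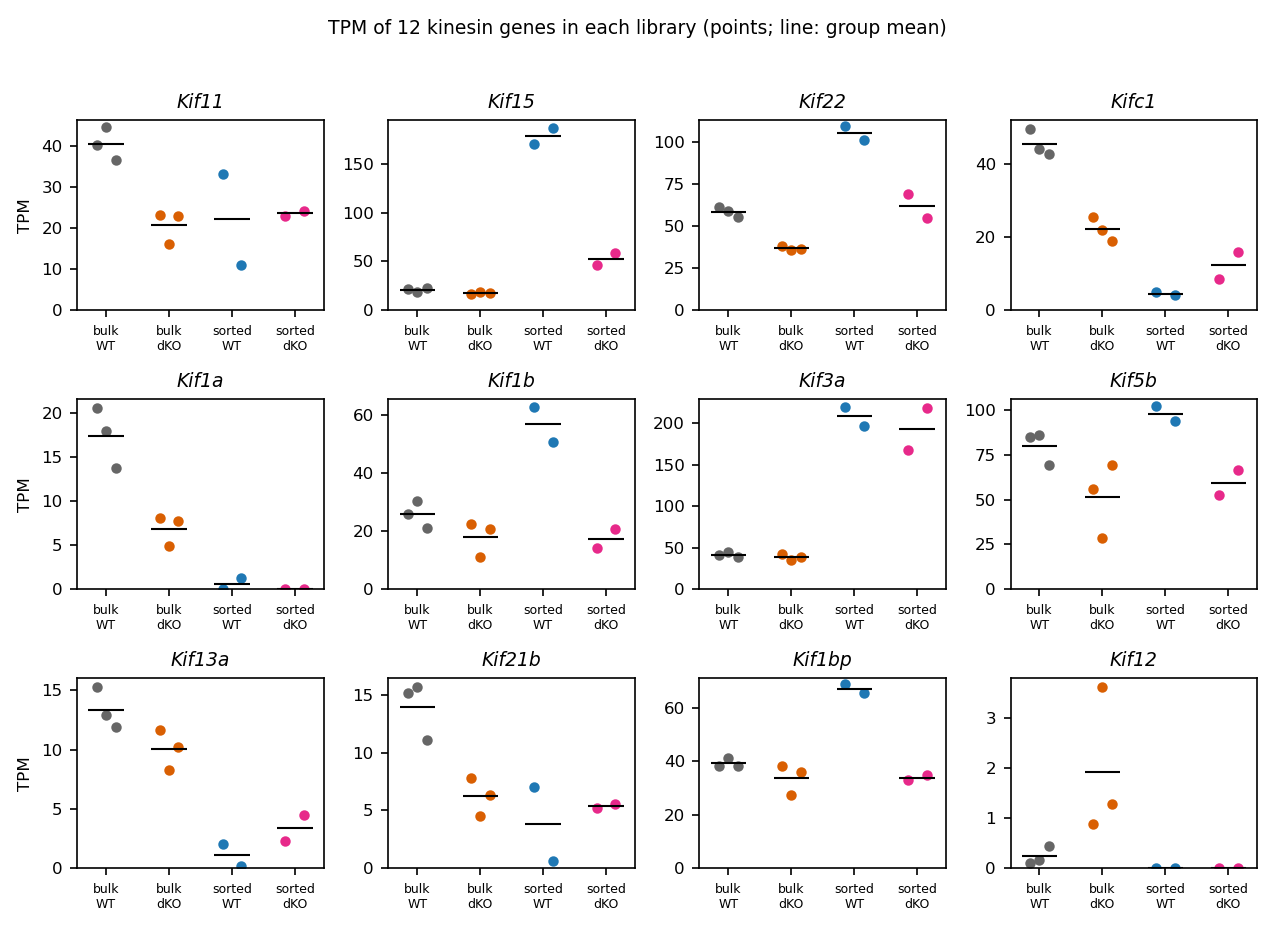
TPM (y axis) of 12 kinesin genes in each of the 10 RNA libraries, by assay and genotype (x axis, dKO standing for Prmt1-dKO), with points for libraries and lines for group means. Genotypes do not overlap in whole testes for Kif11, Kif15 (where they nearly meet), Kif22, Kifc1, Kif1a, Kif13a, Kif21b and Kif12. In sorted spermatogonia they do not overlap for Kif15, Kif22, Kifc1, Kif1b, Kif5b, Kif13a and Kif1bp. Kifc1 lies lower in sorted cells (4.11 to 16.0 TPM) than in any whole-testis library.

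In sorted spermatogonia the members ranked differently. Kif3a was the most abundant transport kinesin, at 220 and 197 TPM in WT and 168 and 219 TPM in Prmt1-dKO. Kif15 led the mitotic group in WT with 170 and 186 TPM, before Kif23 with 113 and 109 TPM and Kif22 with 110 and 102 TPM. Kif5b followed among transport kinesins with 102 and 93.9 TPM, and then Kif13b, a motor of endosomes and cell polarity, with 64.5 and 71.5 TPM. In the third group Kif24, a kinesin of the ciliary cap, had 30.2 and 9.53 TPM, Kif27 11.2 and 7.92 TPM and Kif7 7.28 and 6.55 TPM.

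By edgeR no kinesin gene and no gene of the 16443 tested passed the FDR threshold between genotypes in sorted cells (0% in either direction), where the smallest FDR was 0.0774. Of 38 members tested, 2 were higher (Kif19a and Kifc1) and 4 lower (Kif15, Kif1b, Kif1bp and Kif5b) at an unadjusted p below 0.05, against 16.4% and 7.35% of all genes. DESeq2 called 2 higher (Kif13a and Kifc1) and 2 lower (Kif15 and Kif1b), with 7.02% and 3.79% of genes called by that tool. The tool limma-voom called Kif19a higher and Kif15 lower, with 9.4% and 0.912% of genes. Groups did not overlap for 13 members that were higher and 9 that were lower, against 36.3% and 20.3% of all genes.

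Kif15 had 2691 and 2846 counts in sorted WT and 993 and 1100 in sorted Prmt1-dKO, 46.0 and 59.0 TPM in the latter, and its log2 fold change was -1.08 (SE 0.18, edgeR FDR 0.0774). Kif1b, a motor of mitochondria and vesicles, had 62.7 and 50.6 TPM in WT and 14.2 and 20.6 TPM in Prmt1-dKO (log2 fold change -1.01, SE 0.19, edgeR FDR 0.0774). Kif1bp, which holds several kinesins off the microtubule, had 69.0 and 65.5 TPM against 32.9 and 34.9 TPM (log2 fold change -0.82), and Kif5b had 52.5 and 66.5 TPM in Prmt1-dKO (log2 fold change -0.49). These 4 members were lower in both Prmt1-dKO libraries than in either WT library, and none passed the FDR threshold of edgeR.

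Members with the smallest unadjusted p among those higher in sorted Prmt1-dKO cells were Kif19a, Kifc1 and Kif13a, all at low counts in WT. Kifc1 had 33 and 53 counts in WT and 204 and 206 in Prmt1-dKO (log2 fold change 2.57, SE 0.93, edgeR FDR 0.191). Kif13a had 33 and 9 counts against 130 and 161 (log2 fold change 3.12, edgeR FDR 0.220). Kif19a, a kinesin that limits the length of cilia, had 0 counts in both WT libraries and 21 and 13 in Prmt1-dKO. The Prmt1-dKO mean is at least 7.05-fold higher when 3 counts per library are taken as the floor. The rise of macrophage markers and of genes with a count, given above, went with the same 2 libraries. So did Sertoli cell markers, with a summed level of 355 to 405 TPM in WT and 525 to 716 TPM in Prmt1-dKO. Germ cell markers summed to 3484 to 3492 and 2847 to 2928 TPM. Of these 14 markers 11 had a positive and 3 a negative log2 fold change (median 0.60, against 0.15 for all genes tested). Endothelial markers summed to 101.8 to 123.1 and 73.4 to 96.1 TPM and peritubular myoid markers to 19.0 to 22.0 and 6.08 to 7.76 TPM. Of 7 endothelial markers, however, 6 were at 0 in each sorted WT library and 1 and 2 in the sorted Prmt1-dKO libraries. Of 7 peritubular myoid markers, 3 and 5 were at 0 in sorted WT and 1 and 2 in sorted Prmt1-dKO. Leydig cell markers overlapped, at 11.2 to 14.01 and 13.1 to 18.9 TPM. The part of these differences in the kinesin values was not tested.

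Several members were present in 1 sorted WT library and nearly absent from the other. Kif18b had 455 and 7 counts, Kif3c 310 and 0, Kif1c 153 and 5, Kif1a 0 and 96 and Kifc3 0 and 201. The sorted Prmt1-dKO libraries were closer, with 345 and 285 counts for Kif18b and 266 and 339 for Kif3c. Kifc2, the member with the largest fitted fall among those with at least 50 counts on average, had 35 and 328 counts in WT against 72 and 45, and its log2 fold change of -1.32 (SE 1.36) turned to 1.09 without WT replicate 2. Without WT replicate 1, edgeR called 11 members higher and 6 lower (29.5% and 12% of all genes), and without WT replicate 2 it called 12 and 3 (22.5% and 11.2%), while without either Prmt1-dKO replicate it called 0. A fit with a lone WT library takes its spread from the closer Prmt1-dKO pair alone and assumes that WT varies alike.

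To see where kinesin transcripts stand in sorted spermatogonia relative to whole testes, the WT libraries of both assays were compared; protocol and cell population changed together and cannot be told apart here. Of 40 members tested, 5 were higher in sorted cells and 7 lower at an FDR below 0.05 and at least 2-fold, against 18.7% and 29.8% of 16872 genes, whose median log2 difference was -0.39. The median was 0.11 for mitotic and -1.40 for transport kinesins.

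Higher in sorted cells were Kif15 (log2 difference 2.09, SE 0.11), Kif24 (1.63), Kif3a (1.49, SE 0.10), Kif1bp (1.11) and Kif22 (1.09). Lower were the vesicle motor Kif1c (-5.43), Kif13a (-5.06), Kifc1 (-4.74, SE 0.31), and the neuronal motors Kif21a (-3.01) and Kif5c (-1.20). So were Kif19a and Kif26b, which had 0 counts in both sorted WT libraries. By the floor of 3 counts per library they were at least 10.03-fold and 16.4-fold below the bulk WT mean. Of the 7 lower members, Kif13a, Kif19a, Kif26b and Kifc1 were also called without any 1 of the bulk libraries. In those fits 4 members were higher and 4 lower, against 14% to 14.4% and 23.5% to 23.9% of all genes. Without sorted WT replicate 1 the lower calls numbered 20 (45.9% of all genes), and without replicate 2 they numbered 18 (42.1%). Beside these values, 6 or 7 of 9 Leydig cell markers and 3 to 5 of 7 peritubular markers were at 0 in the sorted WT libraries, and 0 of them in the bulk WT libraries; their part in the lower kinesin values was not tested.

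The genotype difference itself was then compared between assays by an interaction term over all 10 libraries. Of 41 members tested 4 were called higher in sorted cells, Kifc1, Kif13a, Kif19a and Kif26b, and 0 lower, against 13.7% and 3.5% of 19608 genes. Without sorted WT replicate 1, which leaves a lone sorted WT library, 16 were higher and 3 lower (26.8% and 9.05% of genes), and without sorted WT replicate 2, 15 and 0 were (21.5% and 8.95%). For Kifc1 the difference between log2 fold changes was 3.54 (SE 0.36, edgeR FDR 0.00038), since it fell in whole testes and was higher in sorted Prmt1-dKO cells in every library. Kif13a gave 3.67 (SE 0.64, edgeR FDR 0.0046) with the same pattern. Kif19a gave 6.39 and Kif26b 6.64, both from 0 counts in sorted WT, and Kif26b rested on 17 and 2 counts and was lost in 6 of 10 fits that left out 1 library. Among members with a mean of at least 50 counts the largest negative value belonged to Kif1a at -2.89 (SE 1.86, edgeR FDR 0.338) and turned positive without sorted WT replicate 2.

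**Figure D3:**
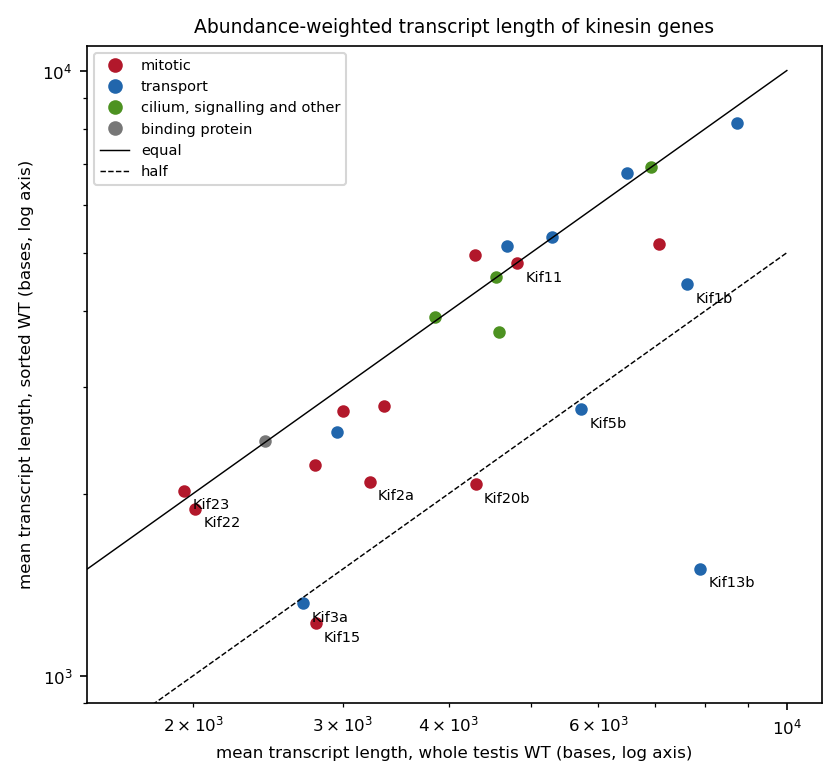
Abundance-weighted transcript length in bases that RSEM assigned to each kinesin gene with at least 50 counts in every WT library, as the WT mean in whole testes (x axis) and in sorted spermatogonia (y axis), coloured by role, with lines for equal and halved length. Of 25 genes 16 lie below the line of equality, Kif11 only just with a length ratio of 0.9994, and 5 lie below the dashed line.

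The assays also differed in which transcripts of a kinesin gene were assigned. Kif3a had mean transcript lengths of 1324 and 1314 bases in sorted WT and 1408 and 1299 in sorted Prmt1-dKO, against 2681, 2688 and 2708 in bulk WT. Kif15 had 1237 and 1205 bases in sorted WT against 2778, 3283 and 2302, and Kif5b 2557 and 2960 against 5664, 5697 and 5823. Kif13b had 2037 and 969 bases against 7779, 7955 and 7972. Kif11 did not follow this, with 4813 and 4807 bases in sorted WT and 4814, 4810 and 4814 in bulk WT. Of 25 members with at least 50 counts in every WT library, 5 (20.0%) had a sorted length below the bulk length divided by 2, against 7.63% of 9006 protein-coding genes by the same rule, and 16 were shorter at all, where 64.4% of those genes were. TPM divides by this length, so the TPM of Kif15 was 8.59 times as high in sorted as in bulk WT while its log2 difference in counts was 2.09. Kif20b was the fifth of these members, with a length ratio of 0.482. Levels of Kif3a, Kif15, Kif5b, Kif13b and Kif20b in TPM carry this difference in length between assays.

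At promoters, H3K4me3 marked most members at both ages, and the arginine marks were found at far more members at P14 than at P7. A gene counted as marked when the summit of a peak lay within 3000 bases of any of its GENCODE start sites in at least 2 replicate lists. H3K4me3, the mark of active promoters, was present at 38 of 43 members at P7 and 40 at P14, against 60.7% and 63.1% of all protein-coding genes. H3K27ac, which marks active promoters and enhancers, was present at 20 and then 36 members, against 31% and 48.9%. These counts carry no test, and 10 members share a promoter window with another gene, for example Kif22 with Maz and Kif20a with Brd8.

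At P7 the members without H3K4me3 in 2 lists were Kif12, Kif19a, Kif28, Kif2b and Kif5a, and at P14 Kif12, Kif28 and Kif1a, the last of which had a peak in 1 list. All 15 mitotic kinesins had it at P14 and 14 at P7. H3K27ac was gained between the ages at 16 members, mitotic (Kif14, Kif23, Kif2c, Kif4, Kifc1 and Kifc5b) and transport or other (Kif17, Kif1a, Kif21b, Kif26a, Kif27, Kif3b, Kif3c, Kif5c, Kif7 and Kifc2), and lost at 0, against 19.5% gained and 1.53% lost over all genes. The H3K27ac lists grew from between 21974 and 23780 peaks to between 37984 and 45817, and at equal list length 20 members were marked at P7 and 28 at P14, against 30.44% and 41.54% of all genes.

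H4R3me2a, the product of Prmt1, was present at 9 members at P7, Kif13b, Kif16b, Kif1b, Kif21b, Kif22, Kif23, Kif26b, Kif2b and Kifc2, against 15.3% of all genes. The peaks of Kif21b lay at different starts of the gene in its 2 lists, and those of Kif22 did not touch (chr7:127031832-127032033 and chr7:127027219-127027462). Those of Kif13b, Kif16b and Kif1b did not touch either. When peaks of 2 lists had to lie near the same start, a rule chosen after the data were seen, 8 members were marked at P7 and 31 at P14, against 12.6% and 46.7% of all genes. With both remaining lists required, 3, 6 and 4 members were marked at P7 without replicates 1, 2 and 3 (8.218%, 7.795% and 7.849% of all genes). At P14 all 9 still carried it and 25 more did, Kif12, Kif13a, Kif14, Kif15, Kif17, Kif18a, Kif18b, Kif19a, Kif1bp, Kif1c, Kif20a, Kif20b, Kif24, Kif27, Kif2a, Kif3a, Kif3c, Kif5a, Kif5b, Kif5c, Kif6, Kif9, Kifc1, Kifc3 and Kifc5b, which makes 34 of 43 against 49% of all genes. By role, 3 of 15 mitotic and 5 of 17 transport kinesins had it at P7, and 12 and 14 at P14. Peaks at members were narrow, with a median width of 264.5 bases at P7 and 365.5 at P14, and a median fold enrichment over the local background of 3.16 and 3.65. The lists themselves grew from between 16995 and 18722 peaks to between 39597 and 44836. Cut to equal length by p-value, they marked 9 members at P7 and 25 at P14, where 14.7% and 30.8% of all genes were marked. At a q of at most 0.01 they marked 1 and 16, against 0.8747% and 19.4%.

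Kif2b and Kifc2 were the members with an H4R3me2a peak in all 3 lists at P7. At Kif2b, a relative of Kif2c, the peaks had folds of 3.40, 4.43 and 3.57 at P7 and 5.0, 4.38 and 5.65 at P14, the latter spanning chr11:91577295-91578479, chr11:91577520-91578263 and chr11:91577379-91578061. The stretch of Kif2b printed above lay under a P7 peak in 2 of 3 lists and under a P14 peak in 3 of 3. No other arginine mark reached 2 lists there, H3K4me3 appeared at P14 alone (folds of 4.15 and 5.38), and RNA was measured at P7 only, where Kif2b had at most 1 count. At Kifc2 the 3 peaks at P7 lay at chr15:76659860-76660142, chr15:76659889-76660125 and chr15:76659863-76660122, just downstream of the start at 76659858, with folds of 5.18, 4.85 and 3.65. All 5 arginine marks had peaks over the same bases at P14, up to a fold of 7.55 for H4R3me1.

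**Figure D4:**
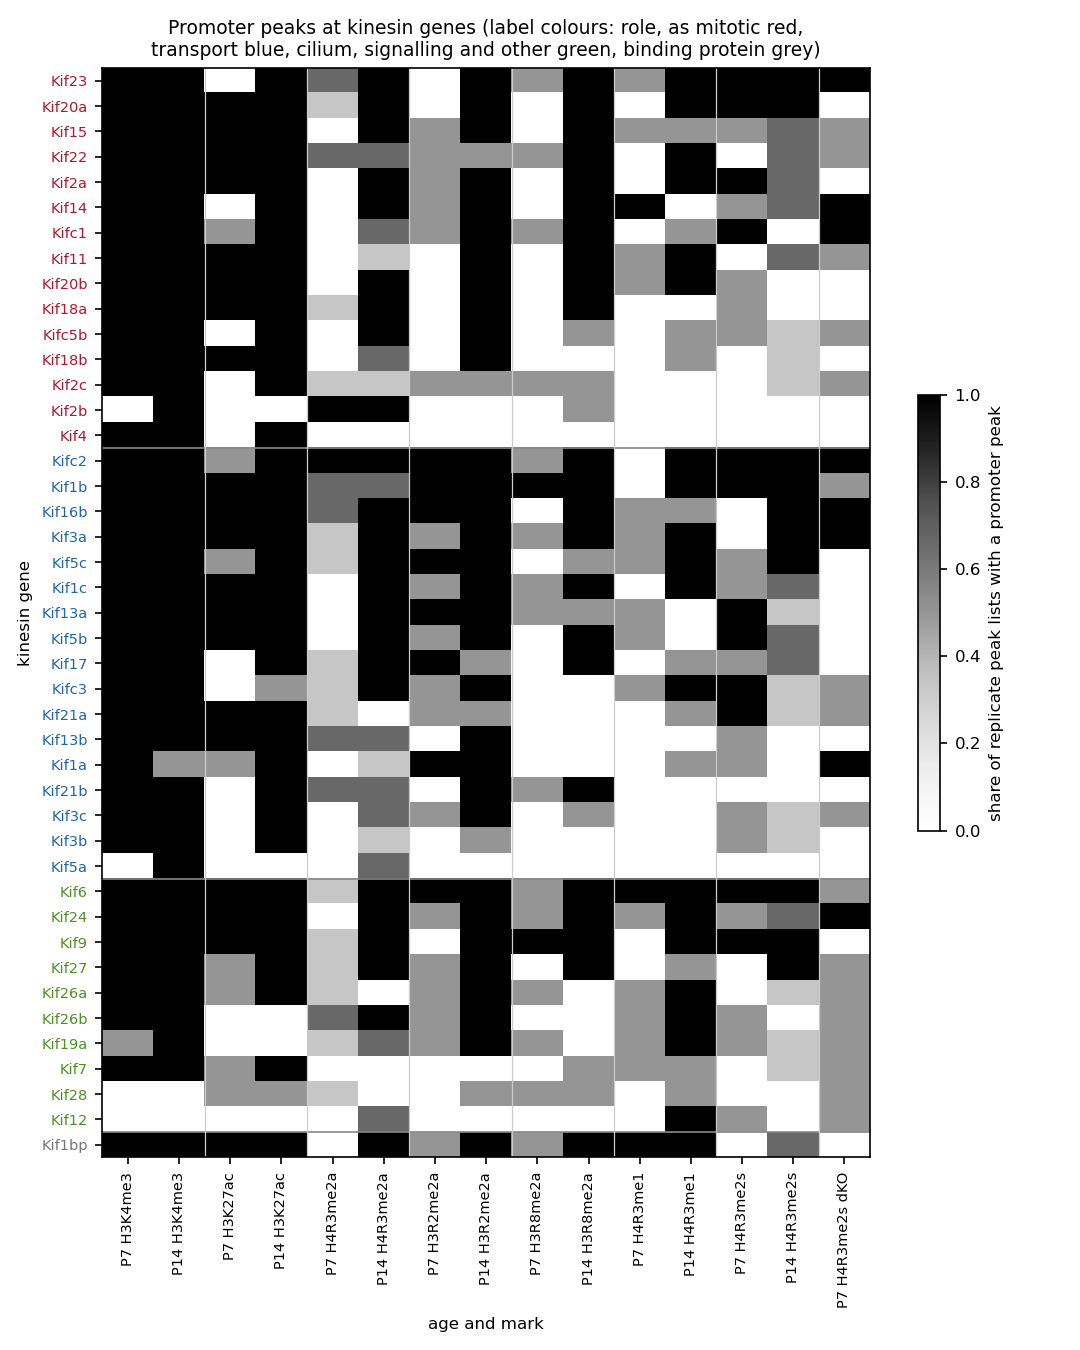
Share of replicate lists with a promoter peak (colour) for each kinesin gene (y axis, labels coloured by role) in each age and mark (x axis, P7 and P14, with H4R3me2s also in Prmt1-dKO at P7). H3K4me3 fills nearly every line at both ages, the arginine marks are sparse at P7 and dense at P14, and Kif2b carries H4R3me2a in all 3 lists at both ages.

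The other arginine marks moved the same way between ages. H3R2me2a was at 8 members at P7 and 32 at P14, against 11% and 51.3% of all genes. At P7 it was at 0 of 15 mitotic kinesins, 6 of which had a peak in 1 list (Kif14, Kif15, Kif22, Kif2a, Kif2c and Kifc1), and at 7 of 17 transport kinesins (Kif13a, Kif16b, Kif17, Kif1a, Kif1b, Kif5c and Kifc2), and at P14 at 11 and 13. Peaks of H3R2me2a at members at P7 had a median distance of 615.5 bases from the start. Within 1000 bases 4 members were marked, against 6.765% of all genes. H3R8me2a was at 2 members (Kif1b and Kif9) and then 23, against 9.71% and 33%, of which 10 were mitotic. H4R3me1 was at 3 (Kif14, Kif1bp and Kif6) and then 20, against 10.8% and 29.9%, with 7 of 10 cilium and signalling kinesins among them. The P7 peaks of Kif6 for H4R3me1 and of Kif13a for H3R2me2a lay at different starts in the 2 lists.

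H4R3me2s, the symmetric mark laid by other enzymes than Prmt1, was at 12 members in WT at P7 and 20 at P14, against 17.8% and 34.2%. At equal list length the members marked went from 8 to 20 for H3R2me2a, 2 to 16 for H3R8me2a, 2 to 16 for H4R3me1 and 8 to 19 for H4R3me2s. The shares of all genes went from 10.35% to 29.78%, 9.621% to 20.75%, 10.22% to 24.39% and 12.98% to 28.78% in that order. At P14, 11 members carried all 5 arginine marks (Kif1b, Kif1bp, Kif1c, Kif20a, Kif23, Kif24, Kif2a, Kif3a, Kif6, Kif9 and Kifc2), against 16.6% of all genes, and 6 had none of them in 2 lists (Kif21a, Kif28, Kif2c, Kif3b, Kif4 and Kif7), against 36.2%. At P7 none was found at 20 members, against 64.9%. The peak names of H4R3me2s at P14 carry the tag SD17 although the label gives day 14, and read depths behind the lists are unknown, so a missing peak is not absence of the mark.

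**Figure D5:**
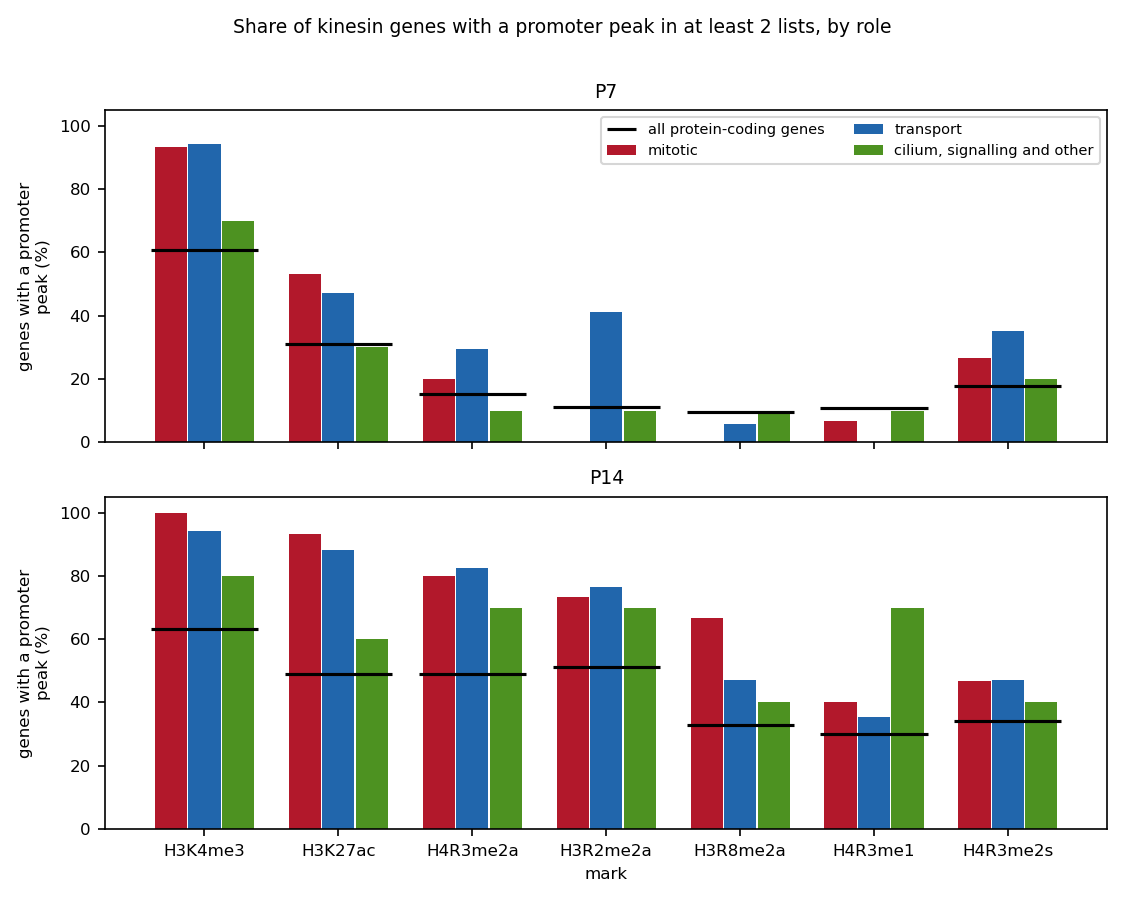
Percent of kinesin genes with a promoter peak in at least 2 lists (y axis) for each mark (x axis) by role, at P7 and P14 in WT. For mitotic kinesins the share with H3R2me2a goes from 0 to 73.3% (11% to 51.3% of all genes), and that with H3K4me3 goes from 14 to 15 of 15.

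In Prmt1-dKO at P7, H4R3me2s was at 8 members, against 9.82% of all genes. It was kept at Kif23, Kifc1 and Kifc2, below 2 lists at 9 members that had it in WT, with no list left at Kif13a, Kif20a, Kif2a, Kif5b and Kif9 and 1 list at Kif1b, Kif21a, Kif6 and Kifc3. It reached 2 lists at 5 members that did not in WT, where Kif14, Kif1a and Kif24 had 1 list and Kif16b and Kif3a none. Over all genes 13.2% went the first way and 5.28% the second. At Kifc2 the WT peaks had folds of 5.65 and 5.95 and the Prmt1-dKO peaks 3.68 and 4.64. At Kifc1 the peaks counted in a genotype lay at different starts of the gene, and so did the WT peaks of Kif6 and Kifc3. At a q of at most 0.01 the marked members were 1 in WT and 0 in Prmt1-dKO (1.558% and 0.246% of all genes), at equal list length they were 8 and 6 (12.98% and 4.975%), and with 2 lists a genotype the difference was not tested.

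Only the promoter peak with the smallest p of each gene and list was laid against the printed upstream bases. The list counts are therefore lower bounds. By this count H3K4me3 was the most frequent mark over them at P7. Its peaks lay over the stretches of Kif11, Kif15, Kif22, Kifc1, Kifc5b and Kif3a in 2 of 2 lists at P7. H3K27ac covered those of Kif11 and Kif15 in 2 of 2 lists at P7, and H4R3me2s that of Kif3a in 2 of 2 Prmt1-dKO lists. None of the peaks compared lay over the stretch of Kif1a shown, whose H3K4me3 peaks at P7 began inside the gene (chr1:93100896-93101095 and chr1:93101351-93101827). Further peaks near its starts were not compared. H3R8me2a covered the stretches of Kif11, Kif15 and Kifc1 in 2 of 2 lists at P14, as H3R2me2a did for Kifc5b and H4R3me1 for Kif3a. H4R3me2a covered that of Kif3a in 3 of 3 lists at P14, and those of Kif15 and Kifc5b in at least 2 of 3. At P7 it covered that of Kif2b alone in 2 lists.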

How the data were processed

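Reads of each RNA library were trimmed with fastp 0.23.2 and aligned to mm10 with STAR by the authors, whose RSEM tables hold expected counts per gene without any normalization. The TPM that the authors deposited are scaled by RSEM within each library and divided by its mean transcript length for the gene. Peak lists were called by the authors with MACS2 2.1.0 in each sample separately, and each states how many fold a peak exceeds its local background, a ratio within that sample. The same deposited lists give −log10 p and −log10 q for every peak, and the peak names carry a q threshold of 0.05 for H3K4me3 and a p threshold for the other marks. The gene annotation behind the tables is not given in the sources used here.

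After rounding, filterByExpr and TMM scaling, expected counts of all genes entered edgeR 4.0.16 (quasi-likelihood test, R 4.3.3) without a replicate block. Calls required a Benjamini-Hochberg FDR below 0.05 together with a change of 2-fold or more. The script was tested on simulated data. TPM were used for levels only. Of 55401 gene identifiers 55141 matched GENCODE vM21. A promoter reached 3000 bases from any start site, and upstream sequences and their 32851 entries come from RefSeq on GRCm38.p6. Alternatives were DESeq2 1.42.0, limma-voom of limma 3.58.1, other size factors, no filter, FDR alone, each library left out, and other promoter widths, thresholds and list lengths.

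Members, roles and lists were written by hand and were chosen with earlier results of these data known. Named with values are the members called in any comparison, the 3 with the highest TPM per assay and role, those with the largest fitted change at a mean of at least 50 counts, and those marked by H4R3me2a, changed in H4R3me2s or lacking H3K4me3. Sequences on 2 chromosomes and the FPKM columns were not used here. Library totals were 12396345 to 18547103 counts, and intervals of peak counts could not be given, since read depths are unknown. No 2 replicate libraries agreed within counting noise.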

Additional observations from a re-analysis of the deposited data

Results flagged for a closer look

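The genotype difference of 4 kinesin genes differed between sorted spermatogonia and whole testes by an interaction term fitted over all 10 RNA libraries with edgeR. The difference of log2 fold changes, sorted cells minus whole testes, was 3.54 for Kifc1, 3.67 for Kif13a, 6.39 for Kif19a and 6.64 for Kif26b. Kifc1 and Kif13a went opposite ways in the 2 assays, lower in every Prmt1-dKO library of whole testes and higher in both of sorted cells. Kif19a and Kif26b had 0 counts in both sorted WT libraries, and their values depend on how such counts are smoothed. With 13.7% of all genes called in the same direction, 4 of 41 members is not above the share of all genes. Without sorted WT replicate 1 or replicate 2, 16 or 15 members were called higher. Groups of 2 and 3 libraries are too small to look for single aberrant samples.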

How the results depend on the processing

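In whole testes Kif1a was called lower under all 12 alternatives run, and Kif12 higher in all but those without WT replicate 1 or WT replicate 2. Members called ranged from 0 to 1 higher and from 1 to 2 lower when 1 library was left out, and by FDR alone they were 3 and 14. Mitotic kinesins below an FDR of 0.05 ranged from 4 to 11. Over all genes, 881 were higher and 294 lower, against 1367 higher with DESeq2, 1777 higher without a filter, and 1749 higher and 1409 lower by FDR alone.

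In sorted cells 0 members and 0 genes were called by edgeR, 2 members higher and 2 lower by DESeq2 (1220 and 659 genes), and 1 and 1 by limma-voom (1546 and 150 genes). When 1 library was left out, members called ranged from 0 to 12 higher and 0 to 6 lower, and genes from 0 to 5290 and 0 to 2146. Depth was not varied, so what it limits was not tested. The log2 fold change of Kifc2 turned from -1.32 to 1.09 without WT replicate 2, and was -2.15 without WT replicate 1.

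Between assays, 8 of 40 members were higher and 10 lower by FDR alone, against 24% and 33% of all genes. Leaving out 1 library gave 4 to 20 members and 3925 to 8321 genes lower (23.5% to 45.9% of all genes). For the interaction, limma-voom called 7 members higher, where 17.4% of all genes were. DESeq2 called 4 members higher and 0 lower, against 14.3% and 6.37% of all genes (1338 genes lower). Leaving out 1 library gave 3 to 16 members higher, 0 to 3 lower, 1993 to 5729 genes higher and 402 to 1936 lower. The value for Kif1a (-2.89) became 0.021 with limma-voom and 5.32 without sorted WT replicate 2, and was -3.88 without sorted WT replicate 1. limma-voom, the recount of mitotic kinesins, the same-start rule for peaks and the interaction fits without 1 library were added after the data were seen. The cause of these changes was not tested.

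Promoter counts at P7 moved most. Shares of all genes under the same setting follow in brackets. For H4R3me2a (9 members), 5 were counted within 1000 bases (9.84%) and 1 at a q of at most 0.01 (0.8747%). With 1 list sufficing 23 were counted (39.99%), with every list required 2 (4.269%), and without 1 list 3 to 6 (7.795% to 8.218%). H3R2me2a (8) gave 4 within 1000 bases (6.765%), 0 at that q (0.4738%), 26 with 1 list (37.51%) and 15 to 19 without 1 list (24.14% to 24.34%). H3R8me2a (2) gave 0, 17 and 9 to 10 at that q, with 1 list and without 1 list (1.048%, 32.86% and 21.05% to 21.52%). In that order H4R3me1 (3) gave 0, 18 and 5 to 16 (0.7699%, 36.75% and 22.29% to 25.31%). H4R3me2s in WT (12) gave 1, 28 and 18 to 22 (1.558%, 48.97% and 33.06% to 33.7%). H4R3me2s in Prmt1-dKO (8) gave 0, 25 and 15 to 18 (0.246%, 40.71% and 23.06% to 27.47%). H3K27ac (20) gave 6 at that q (10.45%). At P14 and a q of at most 0.01, H4R3me2a was counted at 16 members (19.4%), H3R2me2a at 20 (28.26%), H3R8me2a at 9 (11.6%), H4R3me1 at 7 (10.04%) and H4R3me2s at 3 (6.551%). H3R2me2a at P14 was also 20 at equal list length (29.78%), and H4R3me1 was 31 with 1 list (53.77%). H4R3me2s was 31 with 1 list (57.05%), 10 with every list (16.38%) and 11 to 17 without 1 list (20.15% to 24.28%). Where a mark has 2 lists, leaving out 1 leaves a single list, whose peaks then all count. H3K4me3 at both ages and H3K27ac at P14 stayed within 1.5 times under every alternative.

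Replicate numbers are shared between genotypes, but the labels do not say that a number marks a pair, and same-numbered libraries did not deviate together (r across genes of 0.08, -0.22 and -0.12 in whole testes and 0.02 in sorted cells). With a replicate block, 1 member was higher and 1 lower in whole testes (941 and 282 genes), 8 mitotic kinesins were below an FDR of 0.05, and 0 members and 0 genes were called in sorted cells.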
